A study of Homo sapiens with 24 samples.

Results

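The genes described here are members of a published expression classifier for Ph-like acute lymphoblastic leukemia, a B cell precursor leukemia whose expression profile resembles that of BCR-ABL1 leukemia although the BCR-ABL1 fusion is missing. The list named 10 genes: MUC4, CA6, SLC2A5, SEMA6A, PON2, CHN2, NRXN3, BMPR1B, TP53INP1 and ADGRF1. A gene was taken if the array annotation gave it as the only symbol of a row of the core summary, and where a gene had several rows the brightest on average was used. This gave 9 of the 10 genes, out of 14232 genes measured in the same way. CHN2 has no such row and was not analysed here. ADGRF1 has 2 rows and each other member has 1.

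The samples were 4 groups of 3 arrays each: MUTZ-5 cells given 500 nM JQ1 for 8 hours, MUTZ-5 cells given DMSO for 8 hours, and MHH-CALL4 cells given the same JQ1 dose or DMSO for the same time. Both lines are long-established human cultures grown from precursor B cell leukemias, and each is known to carry a CRLF2 rearrangement with an activating JAK2 mutation, so each stands for that genetic subtype alone. JQ1 is a drug-like compound that blocks the acetyl-lysine pockets of BET proteins, and DMSO served as the vehicle. Whether the 3 samples per group were grown as separate cultures is not stated, so the p-values rest on a spread between samples that may be technical.

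Ph-like leukemia is driven by kinase and cytokine receptor lesions that feed JAK-STAT or ABL-class signalling, and its classifier genes were picked because their transcripts separate such leukemias from others in patients. The genes themselves have little in common: they encode a membrane mucin, an enzyme of saliva, a fructose transporter, guidance and adhesion proteins, a BMP receptor, a p53 effector and an orphan receptor. They mark the subtype, and most are not known as its drivers. No leukemia outside the subtype was measured, so the classifier itself could not be scored.

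Promoter sequences are shown for MUC4, CA6 and SLC2A5, the members that fell under JQ1 in at least 1 line. Each line below gives the 250 bases before the annotated start of the gene in RefSeq (GRCh38.p14), read 5′ to 3′ on the gene's own strand. Capitals mark matches to 1 of 3 motifs searched on both strands: TTCNNNGAA (the palindrome bound by STAT factors), CACGTG (the E-box bound by MYC) and TATAAA (the TATA box). MUC4 lies on chr3:195811930-195812179, minus strand. CA6 lies on chr1:8945618-8945867, plus strand, and SLC2A5 on chr1:9069636-9069885, minus strand.
MUC4: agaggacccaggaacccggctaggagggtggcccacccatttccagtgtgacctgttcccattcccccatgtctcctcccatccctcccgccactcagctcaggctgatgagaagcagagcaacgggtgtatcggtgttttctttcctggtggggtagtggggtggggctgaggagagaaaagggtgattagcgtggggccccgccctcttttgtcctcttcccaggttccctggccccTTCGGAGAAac
CA6: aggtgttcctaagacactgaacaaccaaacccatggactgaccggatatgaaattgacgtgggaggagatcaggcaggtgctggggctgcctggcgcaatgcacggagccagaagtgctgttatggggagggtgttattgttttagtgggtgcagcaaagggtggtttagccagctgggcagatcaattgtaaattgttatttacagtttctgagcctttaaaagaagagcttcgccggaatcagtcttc
SLC2A5: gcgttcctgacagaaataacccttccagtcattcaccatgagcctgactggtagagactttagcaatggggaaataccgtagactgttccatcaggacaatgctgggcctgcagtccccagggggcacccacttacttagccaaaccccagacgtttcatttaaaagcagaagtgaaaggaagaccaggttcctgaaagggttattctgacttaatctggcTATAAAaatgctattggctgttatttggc

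The MUC4 window holds 1 TTCNNNGAA match, which begins at position -11 relative to the start. Matches to these letters occur in 7.66% of the 35116 promoters of the table, counted over 300 bases that reach 50 bases past the start. The SLC2A5 window holds 1 TATAAA match at position -29, a motif found in 11.53% of all promoters. CACGTG, found in 7.26% of promoters, has no match in any of the 3 windows, and the CA6 window has no match to any of the motifs searched. CpG dinucleotides over the same 300 bases had observed over expected ratios of 0.416 for MUC4, 0.332 for CA6 and 0.294 for SLC2A5, where the median promoter has 0.579. A lower ratio than that of MUC4 is found in 41.6% of promoters, than that of CA6 in 35.4%, and than that of SLC2A5 in 32.0%. A match is a description of the letters and not evidence of binding, which was not measured.

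The identity of the cells was checked against marker genes. Of 14 precursor B cell markers 12 were measured, and their mean log2 level lay between 11.26 and 11.72 on the 12 arrays. The means of 9 T and NK cell, 5 erythroid and 8 epithelial markers lay between 6.74 and 7.32. Of the 12 precursor B cell markers, 10 in MHH-CALL4 and 11 in MUTZ-5 lay above the median of all genes. RAG1 lay below it in both lines and CD34 in MHH-CALL4. Also above the median were 2 of the 9 T and NK cell, 1 of the 5 erythroid and 1 or 2 of the 8 epithelial markers, KRT8 among them. Of the 5 measured myeloid markers MPO and LYZ were lower under JQ1 in MHH-CALL4, and CD14, CSF1R and ELANE were not called. The mean of the 5 ranged from 7.45 to 7.62 under JQ1 and from 8.09 to 8.19 under DMSO in MHH-CALL4, whereas in MUTZ-5 it ranged from 7.36 to 7.46 under JQ1 and from 7.33 to 7.53 under DMSO. Within groups, MHH-CALL4 JQ1 replicate 3 and MUTZ-5 DMSO replicate 3 deviated most along the first component of the residuals, scoring 0.47 and -0.55.

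Across the 9 members, 5 had at least 1 difference that passed the test and 4 had none. The share of all genes with at least 1 call was not counted. Single comparisons called from 1.53% to 28.5% of all genes. MUC4 fell under JQ1 in both lines, CA6 and SLC2A5 fell in MHH-CALL4, TP53INP1 rose in both lines, and NRXN3 differed between the lines with no call for JQ1. SEMA6A, PON2, BMPR1B and ADGRF1 stayed within 0.27 log2 units across the 4 group means. These last 4 were also the members whose highest group mean lay under 7.15, the lower quartile of all genes. The deposited values carry no detection calls, so it is not known whether these 4 rows read above background.

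**Figure D1:**
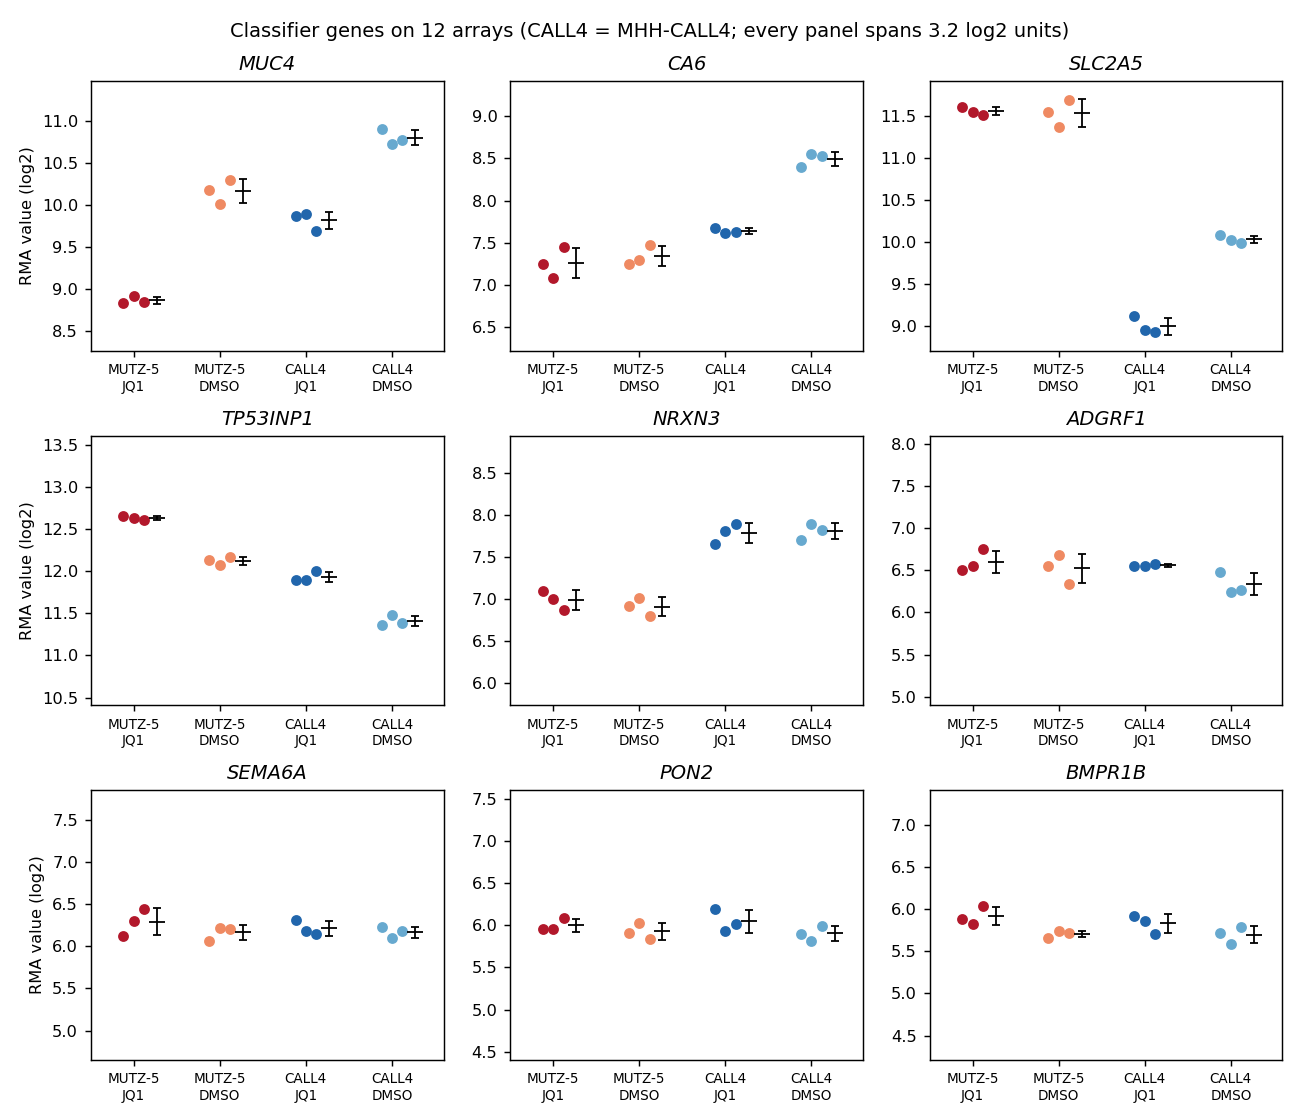
RMA log2 values of the 9 measured classifier genes (y axis) on the 12 arrays, grouped by line and treatment on the x axis. Coloured points are arrays and black bars give mean ± SD of 3 arrays. MUC4 and TP53INP1 part into 4 groups. CA6 and SLC2A5 part by line and, in MHH-CALL4, by treatment, and NRXN3 parts by line. The group means of SEMA6A, PON2, BMPR1B and ADGRF1 lie within 0.27 log2 units.

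The comparison of JQ1 with DMSO within each line asks which of the classifier genes respond to BET inhibition. In MUTZ-5, 2 of 9 members were called at an adjusted p under 0.05, where 22.0% of all genes were called. Of these MUC4 was lower, as were 13.0% of all genes, and TP53INP1 was higher, as were 9.06%. In MHH-CALL4, 4 of 9 members were called, where 28.5% of all genes were called, and of these MUC4, CA6 and SLC2A5 were lower, as were 17.5% of all genes, and TP53INP1 was higher, as were 11.0%. The median difference over the members was 0.079 log2 in MUTZ-5 and 0.046 in MHH-CALL4, against 0.0084 and 0.0065 over all genes. The direction of calls over all genes depends on scaling and, in MUTZ-5, on single arrays. Decreases made up 58.9% of calls in MUTZ-5 and 61.5% in MHH-CALL4 as deposited, and 48.5% and 51.5% after median centring. In MUTZ-5 they made up 47.3% without MUTZ-5 DMSO replicate 3 and 68.2% without MUTZ-5 DMSO replicate 2.

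MUC4 encodes a large membrane-bound mucin that can pair with the receptor ERBB2. In MUTZ-5 its log2 values were 8.84, 8.91 and 8.85 under JQ1 and 10.18, 10.01 and 10.30 under DMSO. In MHH-CALL4 they were 9.86, 9.89 and 9.69 under JQ1 and 10.90, 10.73 and 10.77 under DMSO. Every JQ1 array lay below every DMSO array of its line. JQ1 groups did not overlap DMSO groups in 32.6% of all genes in MUTZ-5 and in 43.7% in MHH-CALL4. MUC4 was 2.45-fold lower under JQ1 in MUTZ-5 (log2 difference -1.29, SE 0.087, limma adjusted p = 3.1e-07) and 1.98-fold lower in MHH-CALL4 (log2 difference -0.98, SE 0.087, limma adjusted p = 2.5e-06). The difference between these effects, -0.31 log2 (MUTZ-5 minus MHH-CALL4, SE 0.12), did not pass the test over all genes (adjusted p = 0.37), and its unadjusted 95% interval ran from -0.58 to -0.043. In RNA of whole cultures, fewer cells of a type and less RNA per cell cannot be told apart.

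The lines also differed in MUC4. It was lower in MUTZ-5 under JQ1 by 0.95 log2 (8.87 ± 0.039 in MUTZ-5 and 9.81 ± 0.105 in MHH-CALL4, mean ± SD, n = 3, limma adjusted p = 2.1e-06) and under DMSO by 0.64 log2 (10.16 ± 0.14 and 10.80 ± 0.090, adjusted p = 8.7e-05). The 4 groups had no overlapping values, in the rising order MUTZ-5 with JQ1, MHH-CALL4 with JQ1, MUTZ-5 with DMSO and MHH-CALL4 with DMSO. With the extended summary of the same scans the JQ1 effects were -1.25 log2 in MUTZ-5 and -0.99 in MHH-CALL4.

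CA6 encodes a carbonic anhydrase that is secreted into saliva. Its log2 values in MUTZ-5 were 7.25, 7.08 and 7.44 under JQ1 and 7.25, 7.29 and 7.48 under DMSO, so the groups overlapped. In MHH-CALL4 they were 7.68, 7.62 and 7.62 under JQ1 and 8.40, 8.55 and 8.53 under DMSO, with no overlap. CA6 was 1.81-fold lower under JQ1 in MHH-CALL4 (log2 difference -0.86, SE 0.095, limma adjusted p = 1.8e-05). In MUTZ-5 the difference was -0.082 log2, with a 95% interval from -0.29 to 0.12 (adjusted p = 0.67). The difference between the effects passed the test, at 0.77 log2 (MUTZ-5 minus MHH-CALL4, SE 0.13, adjusted p = 0.0085). The level of CA6 in MUTZ-5 lay near 7.15, the lower quartile of all genes by highest group mean. Whether CA6 could read lower there is not known.

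The gap between the lines in CA6 was smaller under JQ1, which is the same test seen from the other side. CA6 was lower in MUTZ-5 by 0.38 log2 under JQ1 (7.26 ± 0.18 in MUTZ-5 and 7.64 ± 0.033 in MHH-CALL4, n = 3, limma adjusted p = 0.011), and by 1.15 log2 under DMSO (7.34 ± 0.12 and 8.49 ± 0.083, adjusted p = 6.4e-07). The call under JQ1 was lost without MUTZ-5 JQ1 replicate 2, with a difference of -0.29 log2 (adjusted p = 0.064).

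SLC2A5 encodes GLUT5, the fructose transporter of the plasma membrane. In MUTZ-5 its log2 values were 11.61, 11.54 and 11.51 under JQ1 and 11.54, 11.36 and 11.69 under DMSO, and the groups overlapped. In MHH-CALL4 they were 9.12, 8.96 and 8.93 under JQ1 and 10.08, 10.02 and 9.99 under DMSO, with every JQ1 value lower. SLC2A5 was 2.04-fold lower under JQ1 in MHH-CALL4 (log2 difference -1.03, SE 0.087, limma adjusted p = 1.7e-06). In MUTZ-5 the difference was 0.022 log2, with a 95% interval from -0.17 to 0.21 (adjusted p = 0.93).

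The effects of JQ1 on SLC2A5 differed by 1.05 log2 between the lines (MUTZ-5 minus MHH-CALL4, SE 0.12, limma adjusted p = 4.2e-04). This size rests on the summary used. With the extended summary of the same arrays the effect in MHH-CALL4 was -0.59 log2 (adjusted p = 6.6e-04), and the difference between the lines was 0.57 log2 and did not pass (adjusted p = 0.079). With the core summary 2 of the 9 members passed this test of the difference, CA6 and SLC2A5, where 1.53% of all genes were called. Both differences were positive, as for 0.949% of all genes, and none was negative, as for 0.583%.

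SLC2A5 also had the widest range of the 9 members, 2.55 log2 units over the group means. It was higher in MUTZ-5 than in MHH-CALL4, 5.85-fold under JQ1 (11.55 ± 0.048 in MUTZ-5 and 9.004 ± 0.101 in MHH-CALL4, log2, n = 3, limma adjusted p = 1.1e-10) and 2.83-fold under DMSO (11.53 ± 0.16 and 10.03 ± 0.044, adjusted p = 1.7e-08). Against CA6, whose gap between the lines was smaller under JQ1, that of SLC2A5 was larger under JQ1, at 1.90 log2 under JQ1 and 1.34 under DMSO with the extended summary.

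Some cell type markers also fell under JQ1. Of 12 measured precursor B cell markers, 6 were lower and 1 higher in MUTZ-5, and 4 were lower and none higher in MHH-CALL4, among them VPREB1, a surrogate light chain gene, in both lines. Of 9 T and NK cell markers NKG7 alone was called, lower in both lines. Of 5 myeloid markers MPO was lower in MUTZ-5, and MPO and LYZ were lower in MHH-CALL4, where the median of the list was 0.0043 log2. Over all genes 13.0% were lower in MUTZ-5 and 17.5% in MHH-CALL4. MPO, the myeloperoxidase of neutrophil granules, averaged 7.71 ± 0.084 log2 under JQ1 and 8.19 ± 0.020 under DMSO in MUTZ-5, and 8.04 ± 0.22 under JQ1 and 10.51 ± 0.049 under DMSO in MHH-CALL4 (n = 3). CLDN7 was the only 1 of the 8 epithelial markers called under JQ1, and it was lower in MUTZ-5. The mean of the 8 epithelial markers lay between 7.08 and 7.32 on all arrays, and CA6 and MUC4 are best known from epithelia. The part of these marker genes in the classifier results was not tested.

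**Figure D2:**
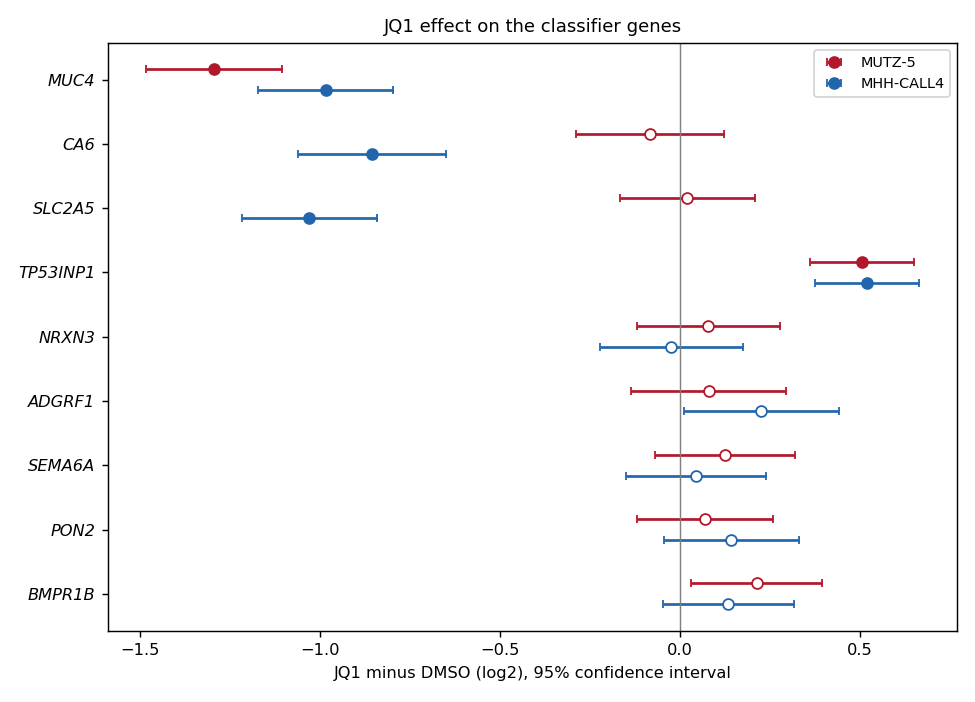
JQ1 minus DMSO (log2, x axis) for each of the 9 classifier genes (y axis) in MUTZ-5 and MHH-CALL4, with bars for 95% confidence intervals that are not adjusted for the number of genes. Filled points passed an adjusted p under 0.05. MUC4 is lower and TP53INP1 higher in both lines, and CA6 and SLC2A5 are lower in MHH-CALL4 with values near 0 in MUTZ-5.

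TP53INP1 encodes a nuclear protein that p53 induces and that acts in autophagy and cell death. In MUTZ-5 its log2 values were 12.65, 12.63 and 12.61 under JQ1 and 12.13, 12.07 and 12.17 under DMSO. In MHH-CALL4 they were 11.90, 11.90 and 12.004 under JQ1 and 11.37, 11.48 and 11.39 under DMSO. JQ1 values lay above DMSO values in each line without overlap. TP53INP1 was 1.42-fold higher under JQ1 in MUTZ-5 (log2 difference 0.51, SE 0.067, limma adjusted p = 1.0e-04) and 1.43-fold higher in MHH-CALL4 (log2 difference 0.52, SE 0.067, limma adjusted p = 6.1e-05). The effects differed by -0.014 log2 between the lines, with a 95% interval from -0.22 to 0.19.

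TP53INP1 was higher in MUTZ-5 than in MHH-CALL4, by 0.70 log2 under JQ1 (limma adjusted p = 3.0e-06) and by 0.71 log2 under DMSO (adjusted p = 2.3e-06). The 4 groups did not overlap and ran, from low to high, MHH-CALL4 with DMSO, MHH-CALL4 with JQ1, MUTZ-5 with DMSO and MUTZ-5 with JQ1. Of 22 other p53 pathway genes measured, 3 were higher and 6 lower under JQ1 in MUTZ-5 (median -0.038 log2, against 0.0084 over all genes). In MHH-CALL4 6 were higher and 6 lower (median 0.13 log2, against 0.0065 over all genes). The shares over all genes were 9.06% higher and 13.0% lower in MUTZ-5, and 11.0% and 17.5% in MHH-CALL4. The death receptor gene FAS fell by 1.34 log2 in MUTZ-5 and by 1.43 in MHH-CALL4, opposite to TP53INP1 (adjusted p = 1.5e-06 and 6.3e-07, limma). PMAIP1, the BCL2 family member NOXA, fell by 0.95 and 0.85 log2 in the same lines. Others rose as TP53INP1 did: TP53I3, a quinone oxidoreductase gene, rose by 0.39 log2 in MUTZ-5 and by 0.81 in MHH-CALL4 (adjusted p = 0.0014 and 2.9e-06, limma).

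NRXN3 encodes neurexin 3, a presynaptic adhesion protein. Its log2 values in MUTZ-5 were 7.09, 7.004 and 6.87 under JQ1 and 6.92, 7.02 and 6.79 under DMSO. In MHH-CALL4 they were 7.65, 7.81 and 7.89 under JQ1 and 7.70, 7.89 and 7.82 under DMSO. JQ1 and DMSO groups overlapped in both lines, and the lines did not overlap each other. NRXN3 was lower in MUTZ-5 by 0.79 log2 under JQ1 (limma adjusted p = 2.0e-05) and by 0.89 log2 under DMSO (adjusted p = 5.4e-06). Its MUTZ-5 means, 6.99 under JQ1 and 6.91 under DMSO, lay under 7.15, the lower quartile of all genes by highest group mean. Whether NRXN3 could read lower in MUTZ-5 is not known. The 95% interval of the JQ1 effect ran from -0.12 to 0.28 log2 in MUTZ-5 and from -0.22 to 0.18 in MHH-CALL4. Of 10 measured partners of neurexins, the ligand gene NLGN2 alone was called under JQ1, higher in MHH-CALL4 by 0.31 log2 (limma adjusted p = 0.020). Of all genes 28.5% were called under JQ1 in MHH-CALL4 and 22.0% in MUTZ-5.

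**Figure D3:**
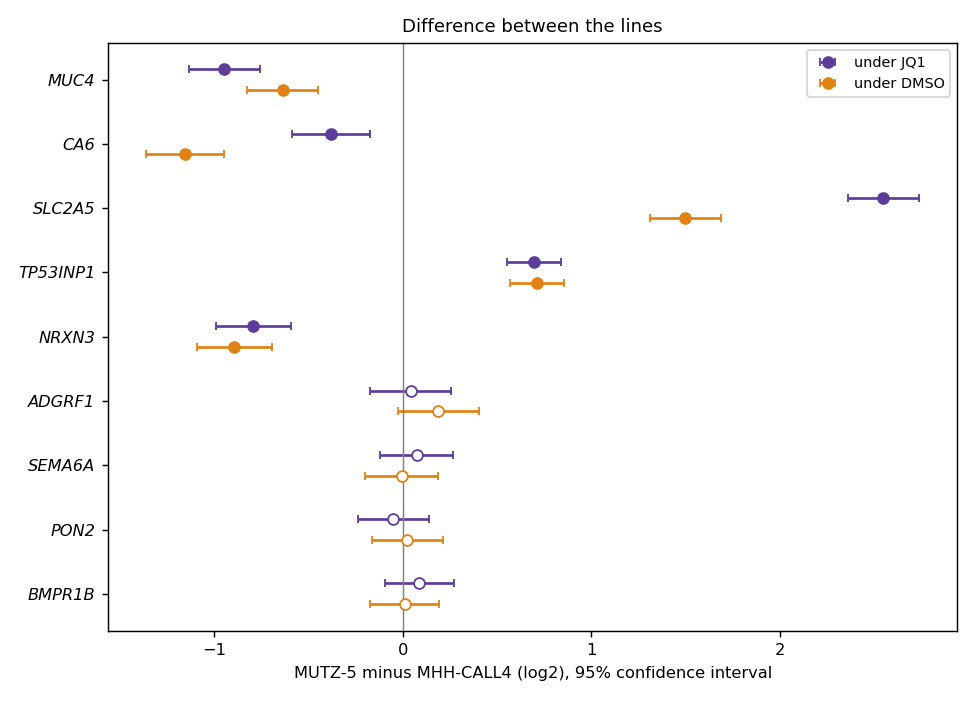
MUTZ-5 minus MHH-CALL4 (log2, x axis) for each of the 9 classifier genes (y axis) under JQ1 and under DMSO, with unadjusted 95% confidence intervals. Filled points passed an adjusted p under 0.05. The gap in SLC2A5 is 2.55 under JQ1 and 1.499 under DMSO, that in CA6 is -0.38 under JQ1 and -1.15 under DMSO, and 4 members have open points under both treatments.

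Between the lines, 5 of 9 members were called under JQ1 and 5 of 9 under DMSO, where 19.9% and 23.4% of all genes were called. The same 5 genes were called under both treatments. SLC2A5 and TP53INP1 were higher in MUTZ-5, as were 11.7% of all genes under JQ1 and 11.9% under DMSO. MUC4, CA6 and NRXN3 were lower there, as were 8.25% under JQ1 and 11.5% under DMSO. All 5 also had groups that did not overlap, as had 33.1% of all genes under JQ1 and 36.2% under DMSO. The JQ1 arrays and the DMSO arrays of this comparison are separate samples.

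The remaining members had no call. ADGRF1, an orphan adhesion receptor formerly named GPR110, had log2 values of 6.55, 6.55 and 6.58 under JQ1 and 6.48, 6.25 and 6.27 under DMSO in MHH-CALL4. These groups did not overlap, as in 43.7% of all genes in MHH-CALL4. The difference of 0.23 log2 (SE 0.100) did not pass the test over all genes (limma adjusted p = 0.11). The other core row of ADGRF1 read 5.64, 5.44 and 5.63 under JQ1 and 5.29, 5.26 and 5.34 under DMSO in that line, a difference of 0.27 log2 that passed (adjusted p = 0.029). The extended summary of the first row also passed, at 0.32 log2 (adjusted p = 0.038). In MUTZ-5 the difference was 0.080 log2 in the first row and -0.031 in the other, and neither passed.

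The rows of ADGRF1 did not place the lines alike. Under JQ1 the first row was higher in MUTZ-5 by 0.042 log2 (limma adjusted p = 0.90), and the other row was lower there by 0.28 log2 (adjusted p = 0.030). No direction between the lines is therefore given for ADGRF1.

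BMPR1B encodes a type I receptor for bone morphogenetic proteins. Its log2 values in MUTZ-5 were 5.89, 5.83 and 6.04 under JQ1 and 5.66, 5.74 and 5.72 under DMSO. The groups did not overlap, as in 32.6% of all genes in MUTZ-5. The difference of 0.21 log2 (95% interval 0.031 to 0.40, not adjusted) did not pass over all genes (limma adjusted p = 0.095). In MHH-CALL4 the difference was 0.14 log2 (adjusted p = 0.26). Of 24 other BMP pathway genes measured, 3 were higher and 2 lower under JQ1 in MUTZ-5, and 5 were higher and 1 lower in MHH-CALL4. Among all genes 9.06% were higher and 13.0% lower in MUTZ-5, and 11.0% and 17.5% in MHH-CALL4. The list medians were 0.024 log2 in MUTZ-5 and 0.0065 in MHH-CALL4. NOG, which encodes the secreted BMP antagonist noggin, fell by 1.24 log2 in MUTZ-5 and by 2.27 in MHH-CALL4 (limma adjusted p = 1.2e-05 and 4.2e-08). The receptor genes ACVR1 and BMPR2 rose in both lines, ACVR1 by 0.86 log2 in MUTZ-5 and 0.73 in MHH-CALL4, and BMPR2 by 0.67 and 0.47.

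SEMA6A encodes a transmembrane semaphorin, a guidance molecule that binds class A plexins. Over all 12 arrays its log2 values lay between 6.06 and 6.44, and its JQ1 effects had 95% intervals from -0.068 to 0.32 in MUTZ-5 and from -0.15 to 0.24 in MHH-CALL4. PON2, an intracellular lactonase of the paraoxonase family, lay between 5.81 and 6.20 on all arrays, with intervals from -0.12 to 0.26 in MUTZ-5 and from -0.045 to 0.33 in MHH-CALL4. None of these 4 intervals reaches a change of 2-fold in the array values. Of 10 plexins and RAC partners measured, 2 were higher and 4 lower under JQ1 in MUTZ-5, and 4 were higher and 3 lower in MHH-CALL4. Among all genes 9.06% were higher and 13.0% lower in MUTZ-5, and 11.0% and 17.5% in MHH-CALL4. The receptor gene PLXNA3 rose under JQ1 by 0.72 log2 in MUTZ-5 and by 0.92 in MHH-CALL4 (limma adjusted p = 2.1e-05 and 1.7e-06).

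CA6 and SLC2A5, whose JQ1 effects differed between the lines, are close together on chromosome 1. In the RefSeq gene order SLC2A7, which encodes a related hexose transporter, is the only protein-coding gene between them. The nearest measured gene before CA6 is ENO1, the glycolytic enzyme enolase 1, and the nearest after SLC2A5 is H6PD, which makes NADPH in the endoplasmic reticulum. In MHH-CALL4 SLC2A7 had log2 values of 7.65, 7.57 and 7.60 under JQ1 and 7.499, 7.23 and 7.40 under DMSO, a difference of 0.23 that passed narrowly (limma adjusted p = 0.0498). In MUTZ-5 SLC2A7 differed by 0.017 log2 (adjusted p = 0.94).

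ENO1 fell in both lines, by 0.33 log2 in MUTZ-5 and by 0.32 in MHH-CALL4 (limma adjusted p = 0.0086 and 0.0088). H6PD rose by 0.57 log2 in MUTZ-5 (adjusted p = 0.0023) and differed by 0.11 in MHH-CALL4 (adjusted p = 0.53). Neither ENO1, SLC2A7 nor H6PD was called for a difference of the JQ1 effects between the lines.

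**Figure D4:**
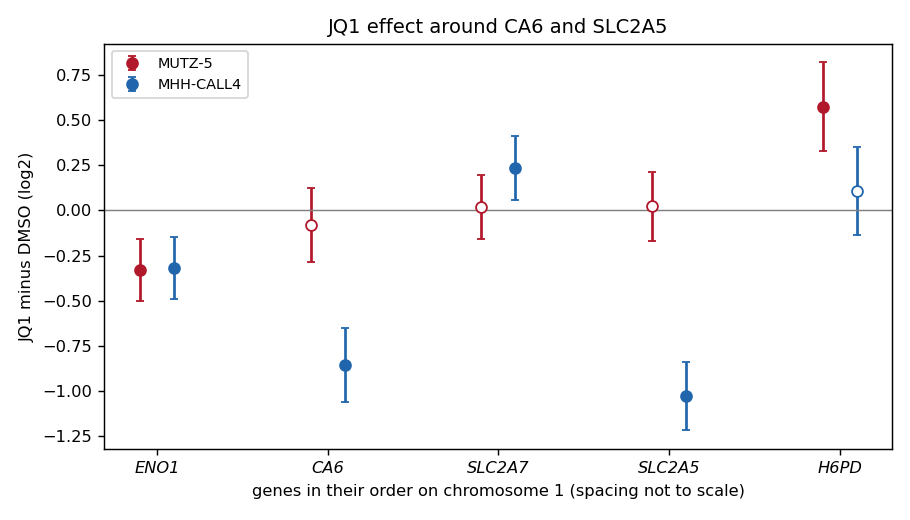
JQ1 minus DMSO (log2, y axis) of CA6, SLC2A5 and their nearest measured neighbours in gene order (x axis, spacing not to scale) in MUTZ-5 and MHH-CALL4, with unadjusted 95% confidence intervals. Filled points passed an adjusted p under 0.05. CA6 at -0.86 and SLC2A5 at -1.03 stand below the genes around them in MHH-CALL4.

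Next to MUC4, TNK2, a non-receptor tyrosine kinase gene that is the nearest measured gene on one side, rose under JQ1 by 0.31 log2 in MUTZ-5 and by 0.23 in MHH-CALL4 (limma adjusted p = 0.0054 and 0.024). APOD on the other side, which encodes a lipid carrier, differed by 0.089 log2 in MUTZ-5 and by -0.084 in MHH-CALL4, and neither passed. Next to BMPR1B, PDLIM5, a gene for a cytoskeletal scaffold, rose by 0.43 log2 in MUTZ-5 and by 0.21 in MHH-CALL4 (adjusted p = 5.0e-04 and 0.038). UNC5C on its other side differed by 0.14 and 0.19 log2, and neither passed. In MHH-CALL4 COMMD10 fell by 0.50 log2 and DTWD2 rose by 0.34 beside SEMA6A, and ADGRF5 rose by 0.27 beside ADGRF1. These were not called in MUTZ-5. The remaining measured neighbours of members were not called under JQ1 in either line.

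For the 4 members whose group means spanned at least 1 log2 unit, the genes with the most alike pattern over the 12 arrays were sought among all genes by Pearson correlation. The closest to MUC4 were DOK3, an adaptor of immune receptor signalling (r = 0.992), and CISH, a feedback inhibitor of cytokine receptors (r = 0.991). DOK3 fell by 2.04 log2 in MUTZ-5 and by 1.28 in MHH-CALL4, and CISH fell by 1.14 and 0.74. The closest to CA6 were ASB13 (r = 0.980) and WWC3 (r = 0.979). Those to SLC2A5 were the MHC class II gene HLA-DPB1 (r = 0.992) and SYPL1 (r = 0.990), and those to TP53INP1 were the phospholipid enzyme gene LPCAT3 (r = 0.995) and RRBP1 (r = 0.994). The arrays share lines and treatments, and the highest of 14232 correlations is high by selection, so these are descriptions without a test.

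Among the members, MUC4 and CA6 varied together over the 12 arrays (r = 0.772), and TP53INP1 ran opposite to each of them (r = -0.930 and -0.894). SLC2A5 and NRXN3 also ran opposite to each other (r = -0.919), since SLC2A5 was higher and NRXN3 lower in MUTZ-5. These values describe 12 arrays of 4 groups and have no test.

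The classifier has 15 genes in its published form. Of the 5 outside the member list, 4 were measured and CRLF2 was not analysed here. IFITM1, an interferon-induced membrane protein, had log2 values of 11.63, 11.57 and 11.55 under JQ1 and 12.68, 12.63 and 12.75 under DMSO in MUTZ-5, and fell by 1.10 log2 there and by 1.23 in MHH-CALL4. SPATS2L, which encodes a stress granule and nucleolar protein, had values of 10.75, 10.70 and 10.67 under JQ1 and 11.26, 11.15 and 11.35 under DMSO in MUTZ-5. It fell by 0.54 log2 in MUTZ-5 (limma adjusted p = 1.4e-04) and by 0.80 in MHH-CALL4 (adjusted p = 3.7e-06). It was lower in MUTZ-5 than in MHH-CALL4 by 0.99 log2 under JQ1 and by 1.25 under DMSO.

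JCHAIN, the joining chain of secreted antibodies, differed by -0.0018 log2 under JQ1 in MUTZ-5 and by -0.16 in MHH-CALL4 (limma adjusted p = 0.99 and 0.23). S100Z, a calcium-binding protein gene, differed by -0.10 log2 in MUTZ-5 and by 0.18 in MHH-CALL4, and neither passed. None of these 4 genes was called for a difference of the JQ1 effects between the lines (limma), and 1, SPATS2L, had an unadjusted p under 0.05.

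A list of kinase, cytokine receptor, RAS pathway and other genes altered in Ph-like leukemia, IKZF1 among them, was counted in the same fit. Of 21 measured, 4 were higher and 3 lower under JQ1 in MUTZ-5, with a median of 0.013 log2. In MHH-CALL4 3 were higher and 7 lower, with a median of -0.0084. Higher were 9.06% of all genes in MUTZ-5 and 11.0% in MHH-CALL4, and lower were 13.0% and 17.5%. The medians over all genes were 0.0084 log2 in MUTZ-5 and 0.0065 in MHH-CALL4. The most changed was IL7R, the interleukin 7 receptor gene, which fell by 2.19 log2 in MUTZ-5 and fell by 1.96 in MHH-CALL4 (limma adjusted p = 5.5e-08 and 6.2e-08). PDGFRB, a receptor kinase that is fused in some Ph-like leukemias, fell by 0.66 log2 in MUTZ-5 and by 0.85 in MHH-CALL4 (limma adjusted p = 2.0e-04 and 1.7e-05). The kinase gene FGFR1 rose by 0.86 log2 in MUTZ-5 and by 0.23 in MHH-CALL4. The lymphoid transcription factor gene IKZF1 rose by 0.28 log2 in MUTZ-5 (adjusted p = 0.021) and fell by 0.98 in MHH-CALL4 (adjusted p = 1.1e-06), and these effects differed by 1.26 log2 (adjusted p = 4.5e-05).

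Family relatives of the members were counted too. Of 39 measured, 7 were higher and 2 lower in MUTZ-5, and 10 were higher and 2 lower in MHH-CALL4, where 9.06% and 11.0% of all genes were higher and 13.0% and 17.5% lower. The list's median was 0.0036 log2 in MUTZ-5 and 0.0997 in MHH-CALL4, against 0.0084 and 0.0065 over all genes. CA13, a cytosolic carbonic anhydrase, rose by 0.63 log2 in MUTZ-5 and by 0.80 in MHH-CALL4 (limma adjusted p = 0.0037 and 5.5e-04). SLC2A13, a myo-inositol transporter, rose by 0.66 log2 in MUTZ-5 (adjusted p = 5.1e-04) and differed by -0.12 in MHH-CALL4. SEMA6C, a relative of SEMA6A, rose by 0.36 and 0.39 log2 in MUTZ-5 and MHH-CALL4.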

How the data were processed

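The deposited values are RMA log2 values, made by the authors in Affymetrix Expression Console from 1 scan per sample at the core and the extended gene level, per the labels and the submitters' processing notes. Program version, genome build and the arrays normalized together are not given in the sources used here, and no detection calls were used. Both levels come from the same 12 scans and count as 1 replicate, and the number of arrays limits the precision. Symbols came from the array annotation, updated through RefSeq gene IDs (GRCh38.p14), which also gave gene order and promoter sequences.

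The core rows with a single symbol gave 14232 genes. All 12 core arrays entered 1 fit, with a mean for each of the 4 groups, in limma 3.58.1 under R 4.3.3 (lmFit, default eBayes, two-sided tests), and low values were kept. Genes were called at 0.05 after Benjamini-Hochberg adjustment across the whole table. The procedure was tested on simulated data. The members and gene lists were chosen with earlier results of these data known. By rule, all members, measured genes of the classifier, nearest measured neighbours, the 2 most alike genes and up to 4 called genes of a list could be named. Same-numbered samples were not paired. Their residual correlations between JQ1 and DMSO ran from 0.070 to 0.30 in MHH-CALL4 and from -0.44 to -0.17 in MUTZ-5. Between the lines they ran from 0.20 to 0.47 under JQ1 and from -0.26 to -0.092 under DMSO.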

Additional observations from a re-analysis of the deposited data

Results flagged for a closer look

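CA6 and SLC2A5 are the members whose JQ1 effects differed between the lines by the test of the difference itself. For CA6 the effects differed by 0.77 log2 (MUTZ-5 minus MHH-CALL4, limma adjusted p = 0.0085), with effects of -0.082 in MUTZ-5 and -0.86 in MHH-CALL4. For SLC2A5 they differed by 1.05 log2 (adjusted p = 4.2e-04), with effects of 0.022 in MUTZ-5 and -1.03 in MHH-CALL4. With the extended summary SLC2A5 no longer passed. In MUTZ-5 CA6 averaged 7.34 log2 under DMSO and 7.26 under JQ1, near the lower quartile of all genes, 7.15 by highest group mean. Whether CA6 could read lower in MUTZ-5 is not known. A cause was not tested for either member.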

How the results depend on the processing

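Each comparison was repeated under 22 alternatives: extended summaries, median centring, cyclic loess, a filter on low values, separate fits, the replicate block, trend and robust settings, all core rows, the other row of ADGRF1, each array left out in turn, and, added after seeing the data, both arrays that stand apart left out. Of 45 results for single members, 40 kept their side of the threshold in every alternative that could be run, and direction was held by all called ones. The separate fits give no value for the difference of JQ1 effects. The exceptions are ADGRF1, CA6 and SLC2A5. ADGRF1 was reversed under JQ1 with its other row (-0.28 log2, MUTZ-5 minus MHH-CALL4), and passed under DMSO without MUTZ-5 DMSO replicate 3 (0.28 log2, adjusted p = 0.048). The filter keeps genes whose highest group mean reaches the median, and so tests only MUC4, SLC2A5 and TP53INP1 of the members. All 3 stayed called between lines under JQ1 and under DMSO, and 1, SLC2A5, for the difference of JQ1 effects. Of the 7116 genes kept, 2622 were called between lines under JQ1, 2642 under DMSO and 226 for that difference. Extended summaries also left 1 member for that difference, CA6, where 181 of 17186 genes were called. Over all genes that difference gave 218 calls as deposited and 360 without MUTZ-5 DMSO replicate 3. With the replicate block 4 members were called in MHH-CALL4, 2 in MUTZ-5, 5 between lines under each treatment and 2 for the difference. No member's call changed. Of 14232 genes, the JQ1 effect passed under this block for 3685 with MHH-CALL4 cells and for 2804 with MUTZ-5 cells. The gap between lines passed for 2565 genes under JQ1 and 2990 under DMSO, and the difference of JQ1 effects for 176. Causes were not tested. Signal over background is not known, which limits SEMA6A, PON2, BMPR1B and ADGRF1 most. It also limits what can be said of CA6 and NRXN3 in MUTZ-5.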
